A study of Mus musculus with 2 samples.

Results

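Ephrin receptors and ephrins were followed across the cells of PDGFB-driven mouse gliomas. The 10 genes described were chosen by name from the 2 families, with earlier results of these data known: the receptors Epha4, Epha5, Epha7, Ephb1, Ephb2 and Ephb3 and the ligands Efna5, Efnb1, Efnb2 and Efnb3. They were 10 of the 18366 genes listed. Pool 1 listed 9 of them, without Efna5, and pool 2 listed all 10. A rise of Epha4 in cells leaving the precursor state had been seen before the choice, so that value is given here as a description.

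The cells came from C57BL/6 mice whose embryonic telencephalon had received a PDGFB gene by somatic transfer in utero, with tumours collected about 40 days after birth and tumour cells sorted by GFP. There was 1 group of 2 libraries, called pool 1 and pool 2, and each held cells of 2 tumours mixed before 4000 cells were partitioned, so mice within a pool were not told apart. There was no control group. Transcripts were counted as unique molecular identifiers (UMIs) from the 3ʹ ends of polyA RNA, and a level is given as counts per 1000000 UMIs (CPM), which needs no division by gene length.

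Eph receptors form the largest family of receptor tyrosine kinases, and their ligands, the ephrins, stay anchored in the membrane of the neighbouring cell. Ephrins of the A class are held by a lipid anchor and mainly bind EphA receptors. Those of the B class cross the membrane and bind EphB receptors, and Epha4 binds ephrins of both classes. Contact signals into both cells, and the usual outcome is a change of the actin cytoskeleton through small GTPases, known in the brain for axon guidance, boundary formation and the migration of neural progenitors.

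A window of 300 bases around the start of transcription is printed for the 3 receptors on which the results turn, Epha4 and Ephb1, which among the 11 tested clusters were highest in one small cluster, and Epha5, which was lowest there. The sequences are from RefSeq (build GRCm38.p6), run 5′ to 3′ on the gene's strand and hold 250 bases before the start and 50 after it. Capitals mark matches to 3 motifs searched on both strands: the E-box CAGCTG, the SOX core ACAAT and the ETS core CCGGAA. Of 32851 mouse promoters of the same 300 bases, 16.3% held CAGCTG, 31.0% ACAAT and 14.9% CCGGAA.
Epha4 (chr1:77515039-77515338, minus strand): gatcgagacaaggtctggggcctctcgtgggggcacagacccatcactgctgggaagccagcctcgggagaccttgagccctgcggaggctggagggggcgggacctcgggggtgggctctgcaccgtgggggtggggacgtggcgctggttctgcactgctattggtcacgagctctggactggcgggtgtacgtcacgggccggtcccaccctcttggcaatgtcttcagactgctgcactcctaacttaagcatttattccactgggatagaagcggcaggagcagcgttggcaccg
Epha5 (chr5:84417333-84417632, minus strand): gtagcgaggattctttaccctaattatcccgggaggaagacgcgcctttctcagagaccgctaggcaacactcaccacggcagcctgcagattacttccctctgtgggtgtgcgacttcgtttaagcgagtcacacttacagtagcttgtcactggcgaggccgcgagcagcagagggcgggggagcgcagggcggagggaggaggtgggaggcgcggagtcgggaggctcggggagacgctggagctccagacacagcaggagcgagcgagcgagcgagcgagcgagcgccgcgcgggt
Ephb1 (chr9:102354644-102354943, minus strand): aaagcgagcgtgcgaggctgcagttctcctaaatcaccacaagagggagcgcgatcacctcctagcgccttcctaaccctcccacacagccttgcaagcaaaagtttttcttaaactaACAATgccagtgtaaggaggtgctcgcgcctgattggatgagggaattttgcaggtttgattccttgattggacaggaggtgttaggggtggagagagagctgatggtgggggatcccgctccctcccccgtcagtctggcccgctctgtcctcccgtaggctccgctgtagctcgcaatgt
The Epha4 and Epha5 windows held no match, and the Ephb1 window held ACAAT with its leftmost base at position -132 from the start. Their GC content was 64.0% for Epha4, 64.3% for Epha5 and 55.7% for Ephb1, against a median of 52.7% over all promoters. Among the other members with an entry, Ephb2 held CCGGAA on the opposite strand at -205 and Ephb3 held CAGCTG at -137. The windows of Epha7, Efnb1, Efnb2 and Efna5 held none of the 3 motifs.

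In the GENCODE vM21 annotation of GRCm38, the receptor genes lie at 1:77367185-77515088 (Epha4, minus strand), 5:84054761-84417382 (Epha5, minus), 4:28813131-28967499 (Epha7, plus), 9:101922128-102354693 (Ephb1, minus), 4:136647539-136835988 (Ephb2, minus) and 16:21204755-21223305 (Ephb3, plus). The ephrin genes lie at 17:62604184-62881317 (Efna5, minus), X:99136130-99148991 (Efnb1, plus), 8:8617434-8661242 (Efnb2, minus) and 11:69554092-69560205 (Efnb3, minus). Exons of Ephb1 overlap those of Gm26846 on the other strand, a gene not listed in the counts. The exons of the other 9 members overlap those of no other gene.

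Pool 1 held 33.9 M UMIs in 3843 barcodes and pool 2 held 40.9 M in 3650, of which 3506 and 3278 cells passed the filter (500 genes or more, mitochondrial UMIs no more than 15%), at medians of 7440 and 11272 UMIs. Only 4 cell barcodes were shared between the libraries. Clustering gave 14 clusters, of which those numbered 0 to 10 had at least 20 cells in each pool and were tested. All members were kept out of the clustering. Cluster 9 (54 and 29 cells) was like committed oligodendrocyte precursors. All 6 markers of that stage were above every other tested cluster in both pools, among them Bmp4 (291 and 234 CPM, against at most 6.43 and 4.75) and Enpp6 (999 and 1170 CPM, against at most 8.26 and 1.36). Most cells of clusters 5 and 8 were cycling, as were 51.7% and 30.1% of those in cluster 10 (pool 1 and pool 2), clusters 0 and 6 were of low depth, and clusters 11, 12 and 13 were microglia-like (12 and 15 cells), astrocyte-like (7 and 7) and oligodendrocyte-like (4 and 20).

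Epha5 was the most abundant member, at 112 CPM in pool 1 and 103 CPM in pool 2 over all kept cells, a mean of 108 ± 6.42 (SD, n = 2). It codes for an EphA receptor of the nervous system. The next level was shared by 4 genes whose order the 2 pools did not settle. Epha4, the receptor that binds both ephrin classes, was at 24.6 and 12.6 CPM. Ephb2 was at 20.8 and 15.7 CPM, and the ligands Efnb3 and Efnb1 were at 17.9 and 20.8 CPM and at 17.1 and 14.8 CPM. The receptors Ephb3 (12.4 and 12.5 CPM) and Ephb1 (11.8 and 10.8 CPM) came below them, and Efnb2 was lowest of the members found throughout, at 8.82 and 7.83 CPM.

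The other 2 members were close to absent. Epha7 gave 14 UMIs in each pool (0.419 and 0.346 CPM), and in pool 1 a single cell held 6 of the 14. Efna5 was not listed in pool 1 and was taken as 0 there. Every listed gene had a UMI in at least 3 barcodes, so a few UMIs of Efna5 may have been left out. In pool 2 it gave 5 UMIs in 5 cells (0.124 CPM). Epha7 and Efna5 were both too low to be fitted, so 8 members entered the tests.

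Epha4 was the member that differed most between the libraries, with a pool 1 to pool 2 ratio of 1.95. It was higher in pool 1 in all 11 tested clusters. The ratio of the other 7 members found throughout lay between 0.863 for Efnb3 and 1.32 for Ephb2. With 1 library of 2 tumours on each side, tumours and libraries cannot be told apart.

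**Figure D1:**
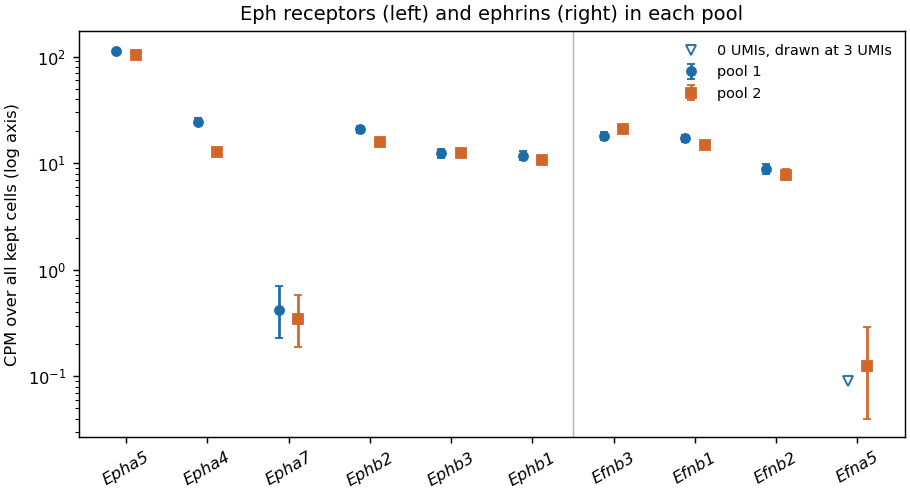
Level of each member in CPM (log axis) over all kept cells, with circles for pool 1, squares for pool 2 and bars for the exact Poisson 95% interval of counting. Epha5 stands alone near 100 CPM, Epha7 and Efna5 lie below 1 CPM, and Epha4 is the gene whose pools are farthest apart. The open triangle marks Efna5 in pool 1, where it was not listed and was taken as 0 UMIs, drawn at the level of 3 UMIs.

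Of the 12 other genes of the family, Efna2 was the most abundant at 26.1 and 23.7 CPM. This ephrin of the A class was above every ligand among the members in both pools. Ephb6, a receptor without kinase activity, was at 13.1 and 10.1 CPM and Efna1 at 4.34 and 4.42 CPM. Epha3 was at 3.26 and 1.95 CPM, and Epha1, Epha2, Epha10, Efna3 and Efna4 lay between 0 and 1.11 CPM. Epha1 was not listed in pool 1 and was taken as 0 there. Epha6, Epha8 and Ephb4 are among the 12 and were listed in neither pool.

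Counted per cell, Epha5 was also the most widely detected member. To compare pools of unequal depth, each cell was thinned to 2000 UMIs, which left out 389 and 404 shallower cells. A UMI of Epha5 was then found in 23.2% of 3117 cells in pool 1 (exact Clopper-Pearson 95% interval 21.7 to 24.7%) and in 20.1% of 2874 cells in pool 2 (18.7 to 21.6%). Epha4 was found in 5.0% and 2.85% of cells, Ephb2 in 4.49% and 3.51%, Efnb3 in 3.88% and 3.65%, Efnb1 in 3.63% and 2.82%, Ephb3 in 3.3% and 2.78%, Efnb2 in 1.89% and 1.77% and Ephb1 in 1.67% and 2.02%. All intervals here cover counting error only.

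These shares follow depth closely. Without thinning, Epha5 was found in 52.1% and 55.3% of cells, Efnb3 in 13.9% and 17.8% and Epha4 in 16.9% and 11.2%. Microglia-like cells, which should lack most of these genes and so show the level of free RNA, were few and shallow, with 12 cells at a median of 1955.5 UMIs and 15 cells at 6847 UMIs. Unthinned, none of the 12 held a UMI of Epha5, Epha4 or Efnb3, and of the 15 only 1 cell (6.67%) held a UMI of Epha5 and 1 a UMI of Efnb3. The intervals for Epha5 reach 26.5% and 31.9%, and thinned to 2000 UMIs, 0 of 6 and 0 of 12 of these cells held one, with intervals up to 45.9% and 26.5%. These lie above the thinned shares of Epha5 in all kept cells, so too few microglia-like cells were left to set a background at equal depth.

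**Figure D2:**
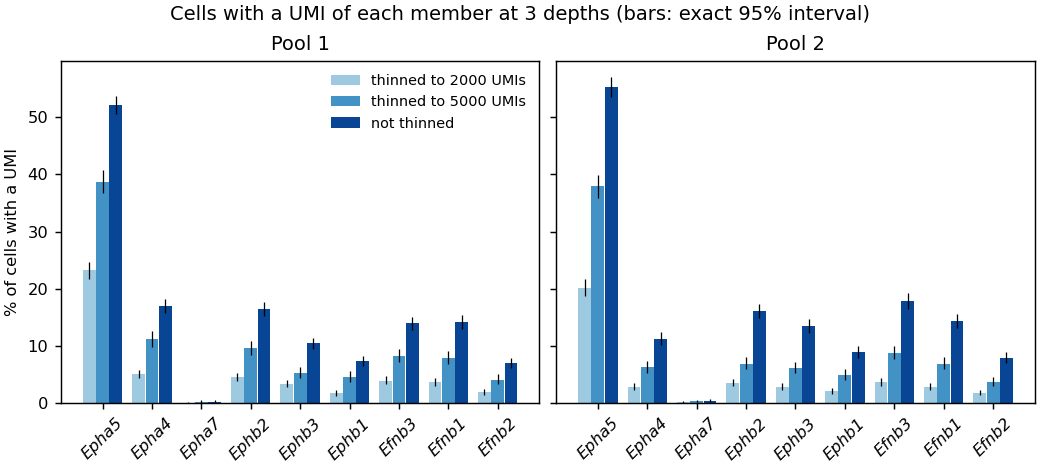
Percent of kept cells with at least 1 UMI of each member (y axis) for the 9 members found in both pools, with cells thinned to 2000 UMIs, thinned to 5000 UMIs or not thinned, and with exact 95% intervals as lines. Epha5 rises from 23.2% to 52.1% of cells in pool 1 and from 20.1% to 55.3% in pool 2 as depth grows, and Epha7 stays under 1%.

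To ask where in the tumours the members were higher or lower, counts kept apart from the clustering were summed per pool and cluster. Each tested cluster was set against the mean of the others, all weighted alike, by edgeR's quasi-likelihood F test with the pool as a block. Changes are log2 values with SE, adjusted p-values are Benjamini-Hochberg over 11407 genes, and a gene is called at an adjusted p under 0.05. A p-value rests on how far a gene's cluster differences varied between the 2 pools, taken over all clusters together and drawn towards other genes. It does not measure the variation of a single cluster's difference. The sums of a pool share their tumours, so a p-value does not extend to other tumours. Without Epha4 in cluster 9, which is a description, there were 87 tests of 8 members over 11 contrasts and 15 calls, 10 higher and 5 lower, in 8 clusters and for 7 members. Without the pool as a block there were 8 calls.

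The members' counts were set against the share of all genes called in the same contrast. Cluster 0 held 3 of 8 members called, against 39.2% of all genes. Cluster 1 held 3 of 8 against 8.98%, cluster 2 held 1 against 6.19%, cluster 3 held 2 against 14.6%, and cluster 5 held 2 against 14.7%. Cluster 7 held 1 of 8 against 5.96% and cluster 8 held 1 against 16.9%. In cluster 9, 2 of the 7 members other than Epha4 were called, against 19.4% of all genes, 1 higher (9.73% of all genes) and 1 lower (9.67%). No member was called in clusters 4, 6 and 10, where 0.202%, 0.131% and 5.65% of genes were called. There edgeR gave 1 member each at an unadjusted p under 0.05, and DESeq2 also called 0. The median change of the 8 members was 0.50 in cluster 0 and 0.48 in cluster 1, against 0.03 and 0.04 over all genes tested. For the 7 members in cluster 9 it was -0.73, against -0.07. That median is the value of Efnb3, which was not called, and it leaves out Epha4. It counts Ephb3, whose fitted change in cluster 9 had an SE of 399.10 and gives no usable value. In the other clusters the median of the 8 members lay between -0.34 (cluster 4) and 0.34 (cluster 6).

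**Figure D3:**
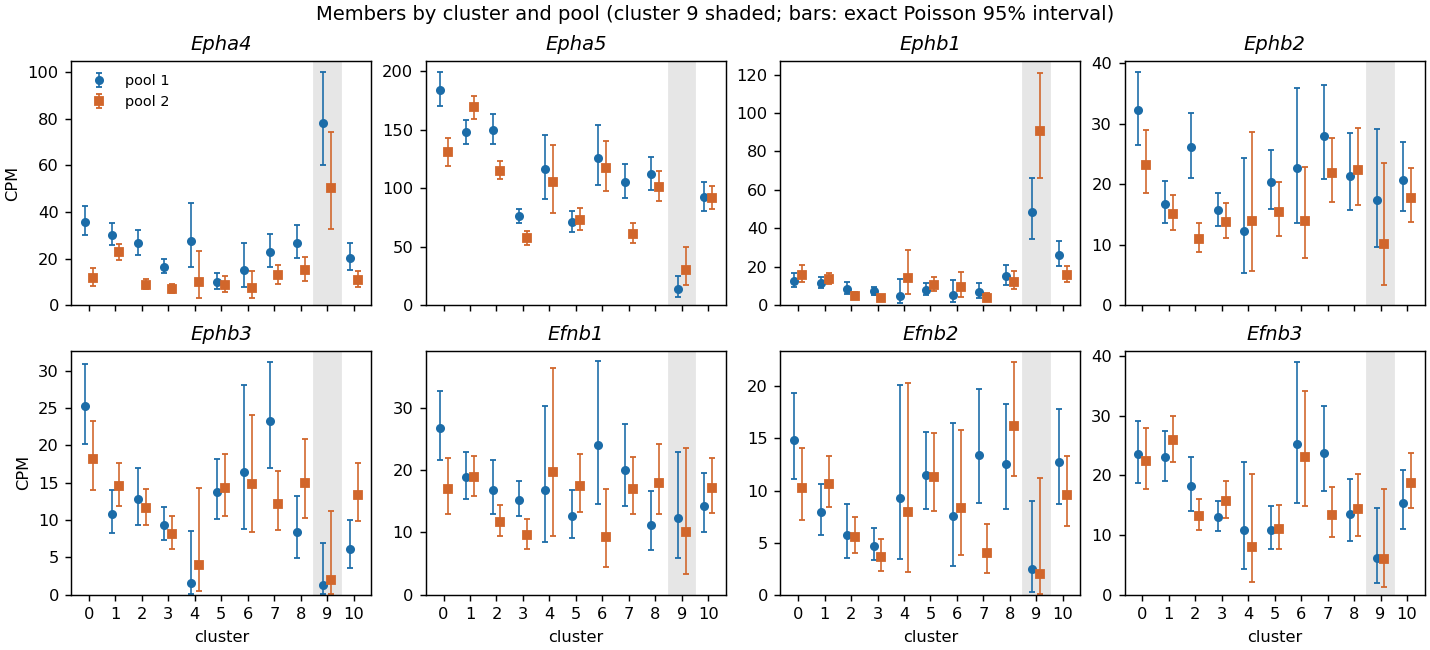
Level in CPM (y axis, from 0) of the 8 members found throughout, by tested cluster (x axis), with circles for pool 1, squares for pool 2 and exact Poisson 95% intervals. Epha4 and Ephb1 are highest and Epha5 lowest in the shaded cluster 9 in both pools, while Ephb2 and Efnb1 have the narrowest ranges.

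Among the tested clusters Epha4 was highest in cluster 9, the committed-precursor-like cells. It was at 78.4 CPM in pool 1 (63 UMIs in 24 of 54 cells) and 50.3 CPM in pool 2 (25 UMIs in 13 of 29 cells). In the other 10 clusters it spanned 10.0 to 35.8 CPM in pool 1 and 6.87 to 22.6 CPM in pool 2, so that cluster 9 lay above all of them in both pools. The share of all genes whose cluster 9 level lay outside the other clusters in both pools is not given. This holds also for Epha5 and Ephb1 below. The fitted change of Epha4 was 1.89 ± 0.29, which is given as a description because this rise was known when the gene was chosen. The next clusters by mean level were 1, at 30.3 and 22.6 CPM, and 0, at 35.8 and 11.6 CPM, whose order differed between pools.

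Among the remaining clusters Epha4 was 1.51-fold higher in cluster 1 (0.59 ± 0.18, adjusted p = 0.0349, edgeR). This cluster was led by Rph3a, Kcnmb4 and C1ql1 and had the highest summed level of committed-precursor markers among the tested clusters other than 9 (1266 and 1092 CPM). Epha4 was lower in cluster 3, at 16.5 and 6.87 CPM (-0.71 ± 0.21, adjusted p = 0.0232, edgeR). The leading genes of cluster 3 were the haemoglobin genes Hbb-bs, Hba-a1 and Hba-a2, followed by S100a10 and Lgals1. Red blood cell markers summed to 359 CPM there in pool 2 but to 0.123 CPM in pool 1, and every other tested cluster lay at or below 0.28 (pool 1) and 0.924 CPM (pool 2). In pool 1 alone the change in cluster 3 was -0.58 for Epha4. It was lowest in pool 1 in the mitotic cluster 5, at 10.0 and 8.61 CPM (-1.02 ± 0.26, adjusted p = 0.00745, edgeR). All 3 calls were lost without the pool as a block.

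Epha5 ran the other way in cluster 9. It stood at 13.7 CPM in pool 1 (11 UMIs) and 30.2 CPM in pool 2 (15 UMIs), while the other 10 clusters spanned 71.3 to 184 CPM in pool 1 and 57.2 to 169 CPM in pool 2, with no overlap in either pool. The change was 5.38-fold lower (-2.43 ± 0.34, adjusted p = 2.82e-06, edgeR), at -3.28 in pool 1 and -1.55 in pool 2. Thinned to 2000 UMIs, 1 of 52 and 1 of 27 cells of cluster 9 held a UMI of Epha5 (1.92% and 3.7%), against 23.6% and 20.5% of the cells of the other tested clusters. Unthinned, the shares were 16.7% and 27.6% against 52.9% and 56.1%, although cluster 9 was the deeper side, at medians of 13824 and 16259 UMIs against 7334 and 11209.

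Epha5 was higher in 3 clusters. Cluster 1 was at 148 and 169 CPM (0.89 ± 0.13, adjusted p = 4.3e-05, edgeR), and 27.2% and 27.7% of its thinned cells held a UMI. Cluster 0 was at 184 and 131 CPM (0.64 ± 0.14, adjusted p = 0.000713, edgeR). In cluster 2, whose leading genes included Meox1, Hotairm1 and Irx2, it was at 150 and 115 CPM (0.53 ± 0.14, adjusted p = 0.0168, edgeR), a call lost without the block. The lowest levels among the tested clusters other than 9 were those of clusters 3 (75.9 and 57.2 CPM) and 5 (71.3 and 73.1 CPM), whose order differed between pools and which were not called.

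Cluster 0 needs its depth beside it. Its cells had medians of 3368.5 and 3439 UMIs, and Malat1, a nuclear RNA, made up 96106 and 72097 CPM there, while no other tested cluster exceeded 60341 and 58968 CPM. The 3 members called in it were all higher, and the part of depth or nuclear RNA in these calls was not tested. Without clusters 0 and 6 in the fit, 12 calls were made over the other contrasts.

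Epha7, a further EphA receptor, reached at most 1.24 CPM in pool 1 and 2.01 CPM in pool 2, both in cluster 9 and both from 1 UMI. No order among clusters can be read from such counts.

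The mean level of Ephb1 ranged 13.4-fold over the tested clusters. Ephb3 ranged 13.3-fold, with a lowest level that rests on 1 UMI in each pool, so the order of the 2 ranges is not settled. Ephb1, an EphB receptor, was at 48.5 CPM in pool 1 (39 UMIs in 12 of 54 cells) and 90.6 CPM in pool 2 (45 UMIs in 10 of 29 cells) in cluster 9. The other 10 clusters spanned 4.62 to 26.1 CPM in pool 1 and 3.44 to 15.9 CPM in pool 2, so the groups did not overlap. The change was 8.03-fold higher (3.01 ± 0.38, adjusted p = 5.43e-07, edgeR), at 2.19 in pool 1 and 3.63 in pool 2. Cluster 9 held 9.9% and 10.3% of all Ephb1 UMIs and 2.4% and 1.23% of all UMIs. Thinned to 2000 UMIs, 5.77% (1.21 to 15.9%) and 18.5% (6.3 to 38.1%) of its cells held a UMI, against 1.61% and 1.78% in the other tested clusters. Unthinned, these shares were 22.2% and 34.5% against 7.09% and 8.39%.

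After cluster 9 came cluster 10, the G1/S cluster led by Ung and Mcm3, at 26.1 and 15.5 CPM, which was not called. Ephb1 was lower in cluster 7, led by Vgf and the interferon-stimulated genes Ifit3 and Isg15, at 6.71 and 3.65 CPM (-1.78 ± 0.51, adjusted p = 0.0345, edgeR). The call was kept under 8 of 13 alternatives. It was lost without the block, without cluster 9, without clusters 5, 8 and 10, with another random division and under the stricter cell filter. Cluster 7 was lowest in neither pool, with cluster 4 at 4.62 CPM in pool 1 and cluster 3 at 3.44 CPM in pool 2.

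Ephb2 and Ephb3, the other EphB receptors, were highest in cluster 0. Ephb2 was at 32.2 and 23.2 CPM there (0.65 ± 0.22, adjusted p = 0.017, edgeR), against 12.3 to 27.9 CPM and 10.1 to 22.3 CPM in the rest. The Ephb2 call was lost without the block and with another random division of the counts. The levels of Ephb2 in cluster 9, 17.4 and 10.1 CPM, rested on 14 and 5 UMIs and the change was not called (-0.31 ± 0.49). Ephb3 was at 25.2 and 18.1 CPM in cluster 0 and was called higher (1.61 ± 0.37, adjusted p = 0.00125, edgeR), at 1.69 in pool 1 and 0.82 in pool 2. Cluster 4 held 0 UMIs of Ephb3 among the counts used for the test, which enlarges that fold. Without cluster 4 the change was 0.90 (adjusted p = 0.0109, edgeR). In cluster 9 Ephb3 gave 1 UMI in each pool, 1.24 CPM (exact Poisson 95% interval 0.0315 to 6.93) and 2.01 CPM (0.051 to 11.2). Both intervals overlap the lowest of the other clusters, 1.54 CPM in pool 1 and 3.97 CPM in pool 2. The fitted change of Ephb3 in cluster 9, -1.25, had an SE of 399.10 and gives no usable value.

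Of the ephrins of the B class, Efnb1 was the most even. Its lowest and highest levels were 11.2 and 26.8 CPM in pool 1 and 9.24 and 19.8 CPM in pool 2, and it was called in no cluster. Its means differed 1.94-fold between the highest and the lowest cluster, the narrowest range among the members tested, next to 2.11-fold for Ephb2.

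Efnb2 was higher in 2 clusters of cycling cells. In the mitotic cluster 5 it was at 11.5 and 11.3 CPM (2.0-fold, adjusted p = 0.0288, edgeR), a call lost with DESeq2 (adjusted p = 0.0563), with another random division of the counts (edgeR, 0.181), with all counts (edgeR, 0.088) and without cluster 9 (edgeR, 0.0508). In the S phase cluster 8, led by histone genes, it was at 12.5 and 16.2 CPM (1.12 ± 0.35, adjusted p = 0.0262, edgeR), a call lost under the stricter cell filter (edgeR, 0.0501) and without cluster 9 (edgeR, 0.051). The highest level in pool 1 was that of cluster 0, which held few cycling cells (14.8 CPM), and cluster 10 was at 12.7 and 9.53 CPM. Neither was called. Cluster 3 was lower, at 4.69 and 3.59 CPM (-1.13 ± 0.36, adjusted p = 0.0347, edgeR), but another random division of the counts gave -0.17 and no call. The call in cluster 3 was kept under 9 of 15 alternatives. In cluster 9, 2 UMIs and 1 UMI of Efnb2 gave 2.49 CPM (0.301 to 8.99) and 2.01 CPM (0.051 to 11.2).

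Efnb3 was higher in cluster 1, at 23.0 and 25.9 CPM (0.67 ± 0.18, adjusted p = 0.0137, edgeR), which makes cluster 1 higher in a ligand and in 2 receptors, Epha4 and Epha5. The Efnb3 and Epha4 calls there were lost with DESeq2 and at Leiden resolution 0.5, where the matching cluster shared a Jaccard index of 0.853. The Efnb3 call was also lost at Leiden resolution 1.2. In cluster 9 Efnb3 was lowest in both pools, at 6.22 and 6.04 CPM from 5 and 3 UMIs, and was not called (-0.73 ± 0.49). Efna5 gave at most 0.304 CPM in any tested cluster.

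Among the other family genes 3 could be fitted, Efna1, Efna2 and Ephb6. Ephb6 was higher in cluster 0 (0.88, at 21.8 and 15.3 CPM) and cluster 1 (0.82), and the other 2 were called in no cluster. Ephb6 was at 3.73 and 6.04 CPM in cluster 9.

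In cluster 9 Ephb1 was called higher and Epha5 lower, Epha4 had its highest level of the tested clusters, and no ligand of the B class was called. These ligands and Ephb3 rest on few UMIs there, and other settings gave calls. With all counts, Efnb3 (-1.32, adjusted p = 0.0198, edgeR) and Ephb3 (-2.75, adjusted p = 0.0114, edgeR) were lower. Another random division of the counts gave Efnb2 lower (adjusted p = 0.0367, edgeR). At Leiden resolution 0.5 clusters 9 and 13 were merged, and in the merged cluster Efnb3 was higher (3.01, adjusted p = 1.04e-07, edgeR) and Ephb3 lower (-2.34, adjusted p = 0.0375, edgeR). Beside these values, the oligodendrocyte markers were high. Their summed level in cluster 9 was 17200 and 19400 CPM, while no other tested cluster exceeded 448 and 401 CPM. Of 10 markers, 6 were above every other tested cluster in both pools, while Ermn was at 0 in both pools and Opalin at 0 in pool 2. Of 8 precursor markers, 5 were below every other tested cluster in both pools, among them Pdgfra at 198 and 270 CPM against at least 913 and 992 CPM. The other way, 2 were above every other tested cluster in both pools. These were Sox10 (493 and 558 CPM against at most 436 and 460) and Vcan (922 and 882 CPM against at most 840 and 496). The part of this change of cell state in the member values was not tested. A sum of 8 genes induced by ERK signalling, among them Spry2 and Dusp6, was 653 and 671 CPM, against 2840 to 4590 CPM and 3220 to 4450 CPM, so that among the tested clusters Epha4 was highest where that sum was lowest.

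Genes that carry or end Eph signals were counted in the same way. Of a list of 35 effector and processing genes, all tested, 14 were called in cluster 9, against 19.4% of all genes. Of these, 6 were higher (9.73% of all genes) and 8 lower (9.67%), with a median change of -0.01 against -0.07 over all genes. Fyn, a Src family kinase required for normal myelination, was at 3790 and 3690 CPM against at most 387 and 502 CPM (3.37 ± 0.10, adjusted p = 4.85e-20, edgeR). Inppl1, which codes for the lipid phosphatase SHIP2, was at 210 and 205 CPM against at most 39.1 and 20.7 CPM (3.51 ± 0.22, adjusted p = 2.57e-13, edgeR). Arhgap35, a GTPase-activating protein, was at 327 and 381 CPM against at most 155 and 139 CPM (1.84 ± 0.13, adjusted p = 6.39e-12, edgeR). Ptpn11, a tyrosine phosphatase, was at 162 and 183 CPM against at most 95.4 and 90.4 CPM (1.35 ± 0.17, adjusted p = 5.29e-07, edgeR).

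For each of these 4 genes cluster 9 lay above all other tested clusters in both pools. They were named for their smallest p in this contrast, and the share of all genes that lay so is not given. Abl1 and Rac1 were the other 2 higher. The 8 lower genes were Kalrn, Tiam1 and Vav3, guanine nucleotide exchange factors, Sipa1l1, Src, Nck1, Sdcbp and Rock2. Kalrn gave 2 UMIs and 1 UMI there, 2.49 CPM (0.301 to 8.99) and 2.01 CPM (0.051 to 11.2), against at least 9.13 and 7.92 CPM elsewhere. Vav3 gave 0 UMIs among the counts used for the test and was at least 2.66-fold lower when set against a floor of 3 counts, taken over both pools together.

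**Figure D4:**
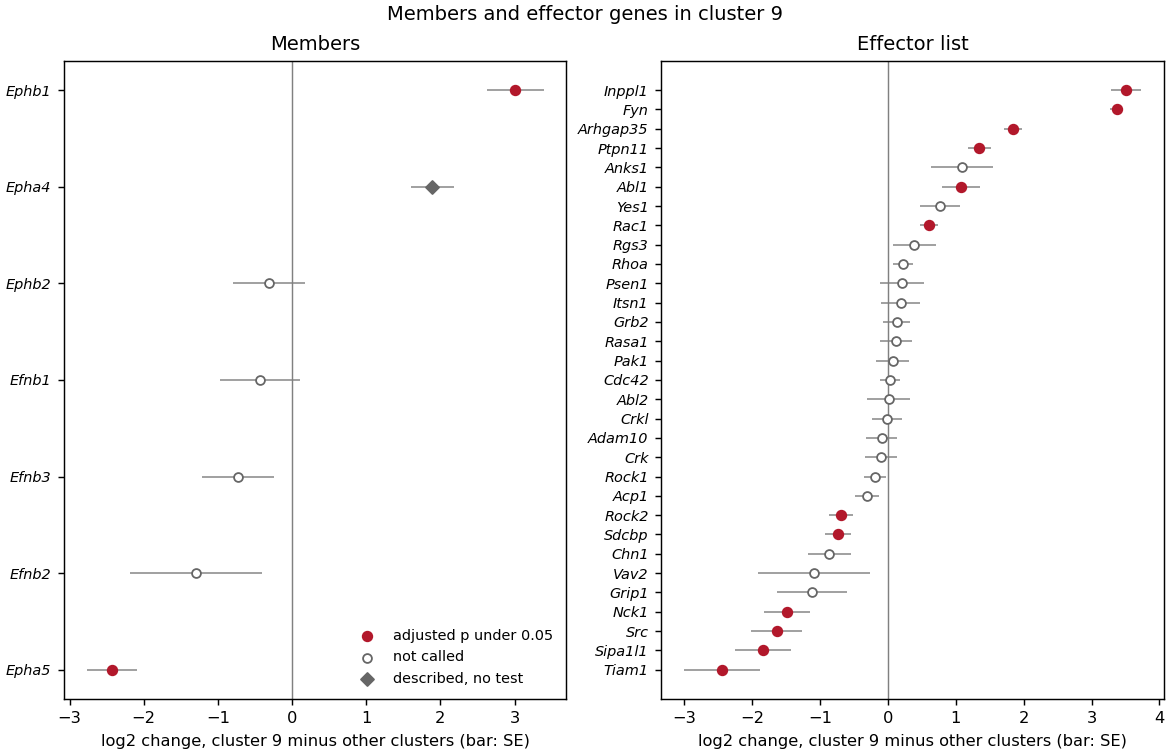
Log2 change of cluster 9 against the mean of the other tested clusters (x axis) for 7 members and 31 effector genes with at least 2 UMIs in cluster 9 among the counts tested. Ephb3 is left out, as its SE was 399.10. Bars are SE, filled circles mark an adjusted p under 0.05 and the diamond marks Epha4, which was described with no test. Ephb1 and Epha4 lie to the right and Epha5 to the left among the members, and Inppl1 and Fyn lie farthest right among the effectors.

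In cluster 0, 17 of the 35 effectors were called, 11 higher and 6 lower, with Abl2 (0.78), Src (0.69), Rhoa (-0.65) and Grip1 (0.84) at the smallest p, against 39.2% of all genes. In clusters 2 and 5 there were 4 calls each, against 6.19% and 14.7% of all genes, and in cluster 8 there were 3, against 16.9%. Clusters 3, 7 and 10 had 2 each, against 14.6%, 5.96% and 5.65%. In clusters 1, 4 and 6 edgeR called 0, with 2, 6 and 7 at an unadjusted p under 0.05, and DESeq2 called 1, 0 and 0. Cluster 1, where 3 members were higher, had no effector called with edgeR.

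Mature oligodendrocyte-like cells, cluster 13, were too few to test, with 4 cells in pool 1 and 20 in pool 2, and are given as values. Efnb3 reached its highest level of any cluster there. This ligand, known as an inhibitor of axon growth in myelin that acts through Epha4, gave 34 UMIs in 4 of 4 cells of pool 1 (368 CPM, exact Poisson 95% interval 255 to 514). Pool 2 gave 151 UMIs in 18 of 20 cells (544 CPM, 461 to 638). The tested clusters ranged from 6.04 to 25.9 CPM over both pools, so neither interval came near them. Cluster 13 held 5.67% and 17.9% of all Efnb3 UMIs with 0.276% and 0.685% of all UMIs.

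Ephb1 was also above the tested clusters other than 9 in cluster 13, at 119 CPM (59.4 to 213) and 90.1 CPM (58.3 to 133). The pool 2 interval holds its level in cluster 9 (90.6 CPM), while the pool 1 interval lies above the 48.5 CPM there. Epha4 was at 54.1 CPM (17.6 to 126) and 14.4 CPM (3.93 to 36.9), and Epha5 at 32.5 CPM (6.69 to 94.9) and 10.8 CPM (2.23 to 31.6). Efnb2, Ephb2 and Ephb3 gave 0 UMIs there in both pools, and Efnb1 gave 2 UMIs in pool 1 and 0 in pool 2. The cells of cluster 13 held 2150 and 1440 CPM of Mog and 1370 and 1240 CPM of Ermn, both near 0 in the 10 tested clusters other than 9.

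**Figure D5:**
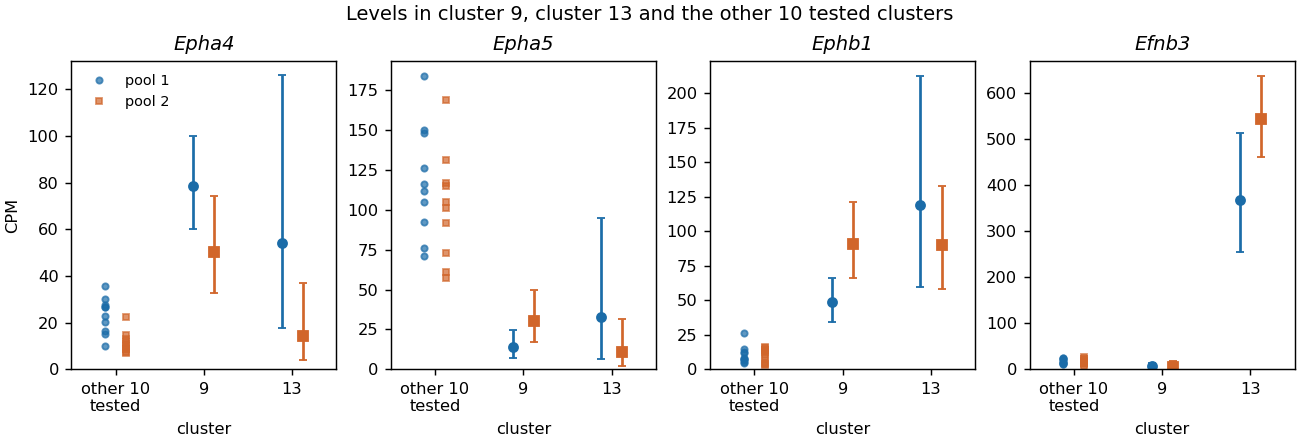
Level in CPM (y axis, from 0) of 4 members in the 10 tested clusters other than 9 (small points, one for each cluster and pool), in committed-precursor-like cluster 9 and in oligodendrocyte-like cluster 13, with exact Poisson 95% intervals for the last 2; circles are pool 1 and squares pool 2. Efnb3 is at 368 and 544 CPM in cluster 13 and at 6.22 and 6.04 CPM in cluster 9, Ephb1 is high in both, and Epha5 is low in both.

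Reads of a receptor and a ligand in the same cell were counted next. Only members were counted, the 6 receptors and 4 ephrins, so Efna2, Ephb6 and the other family genes were left out. Among cells of the tested clusters thinned to 2000 UMIs (3101 and 2837 cells), a UMI of any member receptor with any member ephrin was found in 3.45% and 2.11%. A UMI of a member EphB receptor with an ephrin of the B class was found in 1.23% and 0.529%. Thinned to 5000 UMIs (2113 and 2310 cells), these shares were 11.5% and 10.3%, and 4.64% and 3.29%.

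For the member EphB receptors and ephrins of the B class, pool 1 gave higher shares with an EphB UMI than without, though with overlapping intervals at 2000 UMIs. Pool 2 gave no clear difference. At 2000 UMIs, 13.3% of cells with an EphB UMI in pool 1 (9.61 to 17.8%) also held an ephrin-B UMI, against 8.63% (7.62 to 9.73%) of cells without one. In pool 2 the shares were 6.58% (3.73 to 10.6%) and 7.78% (6.78 to 8.88%). At 5000 UMIs they were 25.2% (21.0 to 29.8%) against 17.0% (15.3 to 18.9%) in pool 1. In pool 2 they were 76 of 380 cells (16.1 to 24.4%) against 17.3% (15.6 to 19.1%). The direction in pool 2 turned with depth, with overlapping intervals at both depths. Epha5 was found in 22.2% and 21.0% of cells with Epha4 at 2000 UMIs and in 23.3% and 20.4% of cells without it. At 5000 UMIs it was found in 45.5% and 43.8% against 38.0% in each pool, with overlapping intervals in both pools. Cells of a pool share their tumours, so these shares are a description and were not tested.

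Dividing cells were compared with the rest within clusters 2, 3 and 10, where each pool had at least 5 cells of each state. After thinning to 2000 UMIs, a cycling cell held UMIs of at least 2 of 10 core genes and a non-cycling cell held none. None of the 8 members was called (edgeR, 9443 genes tested, pool and cluster combined as the block). None was at an unadjusted p under 0.05 and DESeq2 called 0, against 1.44% of all genes called. The largest differences were 0.40 ± 0.66 for Efnb2 and -0.39 ± 0.48 for Efnb1, both smaller than their SE. Epha5, with the best precision, was at -0.30 ± 0.19. Of 33 effectors tested, edgeR and DESeq2 both called 0, with 2 at an unadjusted p under 0.05.

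Members did not share a single pattern over the 11 tested clusters. Pearson correlations of log2(CPM + 1) are given as descriptions, since all clusters come from the same 2 libraries. Epha4 and Ephb1 were at 0.82, and without cluster 9 at 0.45. Epha4 and Epha5 were at -0.50, and without cluster 9 at 0.68, so that the sign turned on that cluster. Ephb2 and Ephb3 were at 0.78 and stayed at 0.75 without cluster 9, and Ephb3 and Efnb3 were at 0.84 and 0.70.

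Genes with the most similar pattern were sought among 9121 genes for the members that ranged at least 4-fold and reached at least 20 CPM in their highest cluster in both pools. For Epha4 they were Cask (r = 0.966), Arhgap24 (0.954) and Nrcam (0.953). For Epha5 they were March1 (0.978), Arfgef3 (0.976) and St7 (0.974), and for Ephb1 they were Fam222a (0.960), Tyro3 (0.955) and Klf13 (0.952). Each r is over 11 clusters. Cluster 9 was the highest or the lowest of them for all 3 members, and r without it was not computed. In cluster 9, Cask was at 343 and 296 CPM and March1 at 21.2 and 10.1 CPM.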

How the data were processed

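Droplet single-cell RNA sequencing was deposited by the authors as raw UMI counts per gene and barcode, made with Cell Ranger 6.0.2 on GRCm38/mm10, per the submitters' processing notes. Members and lists were chosen with earlier results of these data known. Scrublet called 0 and 2 doublets, so doublets were not effectively removed; an alternative left out the 98 and 86 cells of highest score. Each count was divided at random (binomial, 0.5) into a part for clustering (1000 variable genes, 30 components, 15 neighbours, Leiden resolution 0.8; Python 3.11.15, scanpy 1.11.5) and a held-out part for tests (R 4.3.3, edgeR 4.0.16, TMM, filterByExpr; 22 libraries, 10 residual degrees of freedom; cycling 12 and 5). Levels in CPM use all counts. SE is the log2 change over the root of F. Clustering genes were left out of the calls. Cluster sums of 1 pool come from the same tumours, so the pool was the block. Whether intron reads were counted was not given in the sources used here, and exons shared with a gene on the other strand could add to a count. All members were described; of other lists, up to 4 genes of smallest p per contrast were named, and any further name was chosen after its values were seen. Scripts were tested on simulated data. Of the 18366 symbols, 98.45% matched GENCODE vM21. Alternatives were other normalizations, filters, DESeq2 1.42.0, other divisions, resolutions, cell filters and reference clusters, and each pool alone.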

Additional observations from a re-analysis of the deposited data

How the results depend on the processing

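The 15 member calls other than Epha4 in cluster 9 were recomputed under up to 15 alternatives, 2 of them (without cluster 9 and without cluster 4) chosen after the data were seen. Of 214 values, 178 kept their call, 36 lost it and 0 changed direction, and none of the 30 values from a single pool changed direction. Clusters matched at another resolution with a Jaccard index under 0.5 hold mostly other cells and gave no value (Ephb1 in cluster 7, and Efnb2 in cluster 8 at 0.5). The calls kept under all alternatives that gave a value were Epha5 and Ephb1 in cluster 9, Epha5 in clusters 0 and 1 and Ephb3 in cluster 0. Without the pool as a replicate block the member calls fell from 15 to 8, and without clusters 5, 8 and 10 they were 9 over 8 contrasts. Without cluster 9 among the reference clusters, 5 calls were lost. These were Epha5 in cluster 2, Epha4 in cluster 3, Ephb1 in cluster 7 and Efnb2 in clusters 5 and 8. Efnb3 in cluster 9, not called at -0.73, reversed to 3.01 at Leiden resolution 0.5, where clusters 9 and 13 were merged. The cycling comparison called 136 genes. The total was 45 with no replicate block, 68 with DESeq2 and 77 to 117 with a single pool, and member calls were 0 throughout. Members with a UMI in at least 5% of cells in both pools numbered 1 at 2000 UMIs, 6 at 5000 and 8 unthinned. Depth limits cluster 9, where 3 UMIs stand for 3.73 CPM in pool 1 and 6.04 CPM in pool 2, so a member that low there gives no firm value.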

Other observations

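Cluster 12, astrocyte-like cells led by Gja1 and Aqp4, held 7 cells in each pool and was not tested. Epha4 gave 9 UMIs in 3 of 7 cells of pool 1 (194 CPM, exact Poisson 95% interval 88.6 to 368) and 5 UMIs in 3 of 7 cells of pool 2 (97.8 CPM, 31.8 to 228). Both intervals lie above the tested clusters other than 9, which reached at most 35.8 and 22.6 CPM. Both levels were also above those of cluster 9, 78.4 and 50.3 CPM, although the pool 2 interval holds the latter. Epha5 gave 5 UMIs in pool 1 (108 CPM) and gave 0 UMIs in pool 2, with an interval up to 72.2 CPM. Ephb1, Ephb2 and Efnb2 gave 0 UMIs in both pools of these cells.

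In the microglia-like cluster 11, led by C1qa, C1qb and C1qc, all 9 members listed in pool 1 were at 0 UMIs in its 12 cells. In the 15 cells of pool 2, Efnb1 gave 3 UMIs in 2 cells (20.8 CPM, 4.3 to 60.9), Epha5 gave 2 UMIs, and Ephb3 and Efnb3 gave 1 UMI each.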
